A study of Mus musculus with 6 samples.

Results

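The transcription factors that direct keratinocyte differentiation were examined in the epidermis of mouse tail skin, in aged against young animals. The set comprised Trp63, Klf4, Klf5, Grhl1, Grhl3, Ovol1, Tfap2a, Tfap2c, Cebpa and Cebpb, taken as a given list and found on the array through the RefSeq accession of each probe. All 10 genes were found, by 12 of the 55681 non-control probes, among 21368 genes that could be named; Trp63 and Tfap2a had 2 probes each and the other genes 1. All mice were wild-type C57BL/6. The aged group held 1 sample taken at 22 months (replicate 1) and 2 taken at 25 months (replicates 2 and 3), and the young group held 3 samples taken at 8 weeks. The epidermis was lifted from the dermis with EDTA and its total RNA was amplified to cDNA, so each sample mixed all cells of the sheet, including what remained of hair follicles. The labels name no sex and do not say that samples of a group are different animals; the p-values therefore cover only sample-to-sample spread, part of which may be technical.

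Epidermal keratinocytes are born in the basal layer, leave the cell cycle as they move up and end as cornified cells of the skin barrier. p63, the product of Trp63, is the master regulator of stratified epithelia and holds the basal programme. AP-2, KLF, Grainyhead-like, Ovo-like and C/EBP factors act with it or after it, from the exit from the basal state to the genes of the barrier.

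The samples were read on 6 single-dye arrays that shared 1 slide and 1 scan. Per the array barcodes, all aged arrays and young replicate 3 lay in slide row 2, and young replicates 1 and 2 in row 1. Age was therefore largely tied to the slide row. The 75th percentile of the signal was 230.2 to 300.3 units on aged arrays and 260.6 to 280.2 units on young arrays, and no spot was saturated. All 8 listed markers of keratinocytes (Krt5, Krt14, Krt1, Krt10, Dsg3, Dsp, Cdh1 and Epcam) were well above background on all 6 arrays. Epcam was also counted among the Langerhans and dendritic cell genes below. Aged replicate 1 and young replicate 1 were the arrays on which the Y-linked genes Ddx3y and Eif2s3y were well above background. Markers of other cells differed between arrays. The summed signal of 16 hair shaft and inner root sheath genes, as a multiple of the array's 75th percentile, was 920.6, 185.6 and 48.31 on aged replicates 1, 2 and 3, against 1137 to 1764 on young arrays. For 10 melanocyte genes it was 5.235 to 14.15 on aged and 15.53 to 19.54 on young arrays, and for 11 Langerhans and dendritic cell genes 7.37 to 22.5 on aged and 16.82 to 22.29 on young arrays. The 11 sebocyte genes, of which Fabp5 was the brightest, summed to 459.1 to 556.6 on aged and 432.6 to 505.9 on young arrays. The median deviation of these genes from their young means was 1.13, -0.08 and -0.86 on aged replicates 1, 2 and 3. On young arrays it was -0.39 to 0.5. Of 7 fibroblast genes, only the collagen genes Col1a1 and Col3a1 passed the threshold given below, both lower in aged epidermis. Col1a1 was detected above background in 2 of the 3 aged samples and differed by -2.95 (adjusted p = 0.0283). Col3a1 was not well above background in the 3 aged samples and was at least 5.14-fold lower there, taking the weakest detected signal of each array as the floor (adjusted p = 0.0467). Col1a2 of the same list differed by -2.08, with aged values below young ones, and did not pass (limma adjusted p = 0.111). Vim differed by -0.45, and Sparc, Dcn and Col6a1 by 0.48, 0.21 and 0.07, and these did not pass either. The fibroblast sum, in which Sparc was the brightest gene, was 80.06 to 137.6 on aged and 57.92 to 102.3 on young arrays. The median deviation of the fibroblast genes from their young means was -0.3, -0.59 and -1.08 on aged replicates 1, 2 and 3. On young arrays this median was -0.34 to 0.22. The sum on aged and young arrays was 4.191 to 10.42 and 2.58 to 3.833 for 4 T cell genes, and 4.593 to 5.443 and 4.879 to 5.608 for 4 endothelial genes. Of the T cell genes, the brightest, Thy1, had aged values above young ones and did not pass (limma adjusted p = 0.192). Cd3e, Lck and Cd3g differed by 0.07, 0.02 and -0.97 and did not pass either. The median deviation of the T cell genes from their young means was 0.16, 0.06 and -0.03 on aged replicates 1, 2 and 3. It was -0.04 to 0.06 on young arrays.

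None of the 10 transcription factors differed between aged and young epidermis past the threshold, an adjusted p of 0.05 in limma over all features tested. All 12 probes were well above background on all 6 arrays. Over all 14136 tested genes 11 passed, or 0.0778% (0.0424% higher and 0.0354% lower in aged epidermis), and 0 passed when the replicate number was a block in the fit. At an unadjusted p under 0.05 the members also numbered 0, where 17.7% of all tested genes lay (11.4% higher and 6.3% lower in aged epidermis). The differences, aged minus young on the log2 scale, were small in both directions, with 8 members above 0 and 2 below, from -0.10 for Ovol1 to 0.31 for Tfap2a. Their median was 0.14, beside a median of 0.09 over all tested genes, of which 63.6% lay above 0. Scaling each array to its median put the members' median at 0.219 and that of all genes at 0.169, and quantile normalization at 0.049 and 0.048. Without aged replicate 1 these medians were 0.291 and 0.123, and without aged replicate 3 they were 0.016 and 0.058. In this bulk tissue, fewer cells that express a gene and less RNA per cell cannot be told apart. Signals below are log2 values relative to the 75th percentile of the array, and the level of a probe is compared only with the same probe on other arrays.

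**Figure D1:**
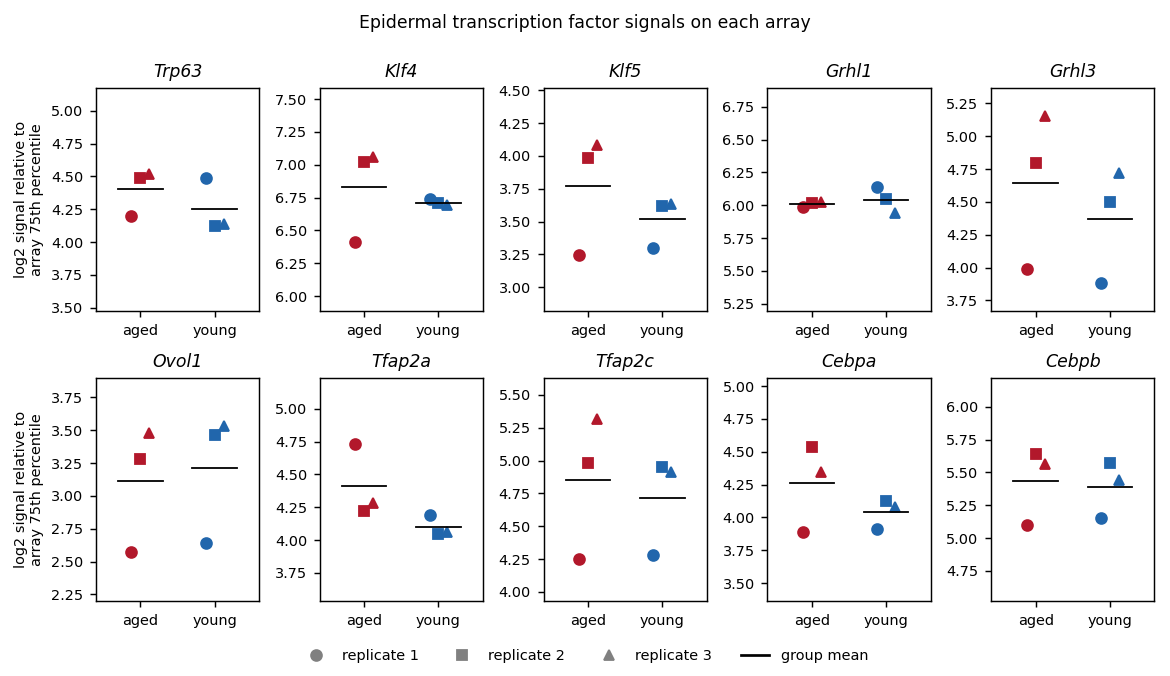
Signal of each transcription factor gene on each of the 6 arrays, as log2 relative to the array's 75th percentile, in aged and young epidermis; symbols mark the replicate number and bars the group mean (n = 3 arrays per group), and every panel spans the same number of log2 units. Aged and young points overlap in every panel but that of Tfap2a, and replicate 1 lies lowest in both groups for Klf5, Grhl3, Ovol1, Tfap2c, Cebpa and Cebpb.

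Trp63 keeps basal keratinocytes proliferative and committed to a stratified fate. Its signal was 4.20, 4.49 and 4.52 on aged replicates 1, 2 and 3 and 4.49, 4.13 and 4.14 on young replicates 1, 2 and 3. The groups overlapped because aged replicate 1 and young replicate 1 each lay apart from the other arrays of their group, in opposite directions. The means of 4.40 ± 0.18 in aged and 4.25 ± 0.21 in young epidermis (SD, n = 3 arrays each) differed by 0.15 ± 0.16 (SE, 95% confidence interval -0.24 to 0.54, limma adjusted p = 0.638). A second probe, A_55_P2161055, designed to another transcript of the gene, had 2.59, 3.17 and 2.98 on aged and 2.51, 3.20 and 2.74 on young arrays. On this probe both arrays numbered 1 were the lowest of their group, unlike on the brighter probe. It differed by 0.09 ± 0.24 when all probes were tested one by one (adjusted p = 0.864). Without both arrays numbered 1 the brighter probe differed by 0.38 ± 0.12 (adjusted p = 0.155), and without aged replicate 3 by 0.094.

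The AP-2 genes Tfap2a and Tfap2c encode related factors that act together in mouse epidermis at the start of terminal differentiation. Tfap2a had the smallest p of the members. Its signal was 4.73, 4.22 and 4.28 on aged arrays and 4.19, 4.05 and 4.06 on young arrays. Every aged value lay above every young value, with aged replicate 1 farthest out. It was the 1 member of 10 with separate groups, where 27% of all tested genes had separate groups, 19.5% with the aged values above and 7.48% with them below. The means of 4.41 ± 0.28 and 4.10 ± 0.08 differed by 0.31 ± 0.17 (95% confidence interval -0.10 to 0.71, adjusted p = 0.369), and without aged replicate 1 the difference was 0.15 (adjusted p = 0.492). The second Tfap2a probe, A_55_P2199463, gave 0.45, 0.42 and 0.50 on aged and 0.38, 0.78 and 0.42 on young arrays. It differed by -0.07 ± 0.14 (adjusted p = 0.838), so the 2 probes of the gene had opposite signs and overlapping intervals.

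Tfap2c had 4.25, 4.98 and 5.32 on aged replicates 1, 2 and 3 and 4.28, 4.95 and 4.92 on young replicates 1, 2 and 3. Both arrays numbered 1 were low by a similar amount, and aged replicates 2 and 3 exceeded all young arrays, replicate 2 by a narrow margin. The means of 4.85 ± 0.55 in aged and 4.72 ± 0.38 in young epidermis differed by 0.13 ± 0.32 (95% confidence interval -0.65 to 0.92, adjusted p = 0.856). Its sign changed without aged replicate 3 (-0.10) and without young replicate 1 (-0.09), and it was 0.43 without aged replicate 1 (adjusted p = 0.348).

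Among the Krüppel-like factors, Klf4 is needed for barrier formation in mouse skin and is found in the suprabasal layers. It had 6.41, 7.02 and 7.06 on aged arrays and 6.74, 6.71 and 6.70 on young arrays. The young arrays lay within a narrow band, and the aged arrays stood on either side of it, replicate 1 below and replicates 2 and 3 above. The means of 6.83 ± 0.36 and 6.71 ± 0.02 differed by 0.12 ± 0.20 (95% confidence interval -0.36 to 0.59, adjusted p = 0.778). Without aged replicate 1 Klf4 differed by 0.33 ± 0.11 (unadjusted p = 0.03, limma adjusted p = 0.174) and without both arrays numbered 1 by 0.34 ± 0.12 (adjusted p = 0.176). The difference was 0.005 without aged replicate 3 and 0.022 without aged replicate 2.

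Klf5 encodes a related factor of epithelial proliferation. Its signal was 3.25, 3.99 and 4.09 on aged arrays and 3.30, 3.62 and 3.64 on young arrays. The arrays numbered 1 were lowest in both groups, and the other aged arrays lay above all young ones. The means of 3.77 ± 0.46 in aged and 3.52 ± 0.19 in young epidermis differed by 0.25 ± 0.25 (95% confidence interval -0.35 to 0.86, adjusted p = 0.614). Without aged replicate 1 the difference was 0.52 ± 0.15 (unadjusted p = 0.0167, limma adjusted p = 0.132), and without both arrays numbered 1 it was 0.41 ± 0.12 (adjusted p = 0.148). It was 0.098 without aged replicate 3.

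The Grainyhead-like genes act late. In mice Grhl3 is required for the epidermal barrier and for expression of the crosslinking enzyme gene Tgm1, and Grhl1 for desmosomal cadherin expression and hair anchorage. Grhl1 was the steadiest member. It had 5.99, 6.02 and 6.03 on aged arrays and 6.14, 6.04 and 5.94 on young arrays, all within 0.20 log2 units. The means of 6.01 ± 0.02 and 6.04 ± 0.10 differed by -0.03 ± 0.11 (95% confidence interval -0.30 to 0.23, adjusted p = 0.892), the narrowest interval among the members. The spread between replicates of Grhl1 was lower than that of all but 4.76% of tested genes.

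Grhl3 was the most variable. It had 3.99, 4.80 and 5.15 on aged replicates 1, 2 and 3 and 3.88, 4.50 and 4.72 on young replicates 1, 2 and 3. In both groups replicate 1 was lowest and replicate 3 highest, and each aged array was above its young counterpart, by 0.11, 0.29 and 0.44. The means of 4.65 ± 0.60 and 4.37 ± 0.43 differed by 0.28 ± 0.36 (95% confidence interval -0.59 to 1.15, adjusted p = 0.702). With the replicate number as a block the same difference had an SE of 0.12 and did not pass either (adjusted p = 0.3). It was 0.61 ± 0.28 without aged replicate 1 (adjusted p = 0.263), but 0.028 without aged replicate 3 and 0.037 without young replicate 1.

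Ovol1 encodes a zinc finger factor that in mouse epidermis restrains proliferation as cells leave the basal layer. It had 2.57, 3.28 and 3.48 on aged arrays and 2.64, 3.46 and 3.53 on young arrays. Both arrays numbered 1 were far below the rest, and each aged array was slightly below its young counterpart, by 0.05 to 0.18. The means of 3.11 ± 0.48 and 3.21 ± 0.50 differed by -0.10 ± 0.33 (95% confidence interval -0.91 to 0.71, adjusted p = 0.9). With the replicate block the SE was 0.11 (adjusted p = 0.637), and without aged replicate 1 the sign turned (0.17, adjusted p = 0.746).

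C/EBPα and C/EBPβ, the products of Cebpa and Cebpb, together bring mouse basal keratinocytes out of the cell cycle and into differentiation. Cebpa had 3.89, 4.54 and 4.35 on aged arrays and 3.92, 4.13 and 4.08 on young arrays. Aged replicates 2 and 3 exceeded all young arrays and aged replicate 1 was the lowest of all. The means of 4.26 ± 0.33 and 4.04 ± 0.11 differed by 0.22 ± 0.19 (95% confidence interval -0.24 to 0.68, adjusted p = 0.564), or by 0.40 ± 0.14 without aged replicate 1 (unadjusted p = 0.028, limma adjusted p = 0.168). Without aged replicate 2 the difference was 0.079. Cebpb had 5.10, 5.64 and 5.56 on aged arrays and 5.15, 5.57 and 5.44 on young arrays, nearly the same in both groups. Its means of 5.44 ± 0.29 and 5.39 ± 0.21 differed by 0.05 ± 0.19 (95% confidence interval -0.43 to 0.52, adjusted p = 0.917), and the sign turned under 5 of 17 alternatives.

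**Figure D2:**
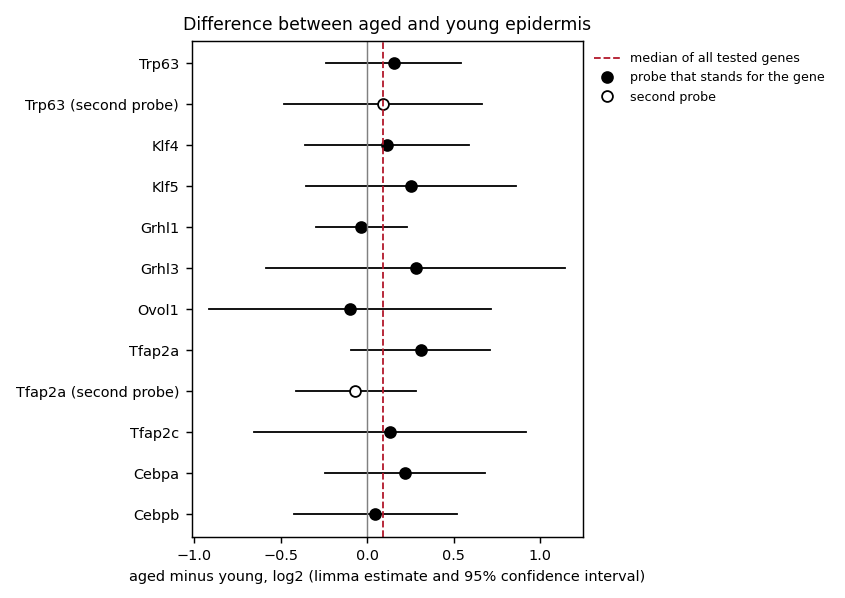
Difference of each transcription factor probe between aged and young epidermis on the log2 scale, as the limma estimate (point) with its 95% confidence interval (line), from 3 aged and 3 young arrays; open points are second probes of a gene, and the dashed line is the median of all tested genes at 0.09. Every interval crosses 0, the narrowest for Grhl1 (-0.30 to 0.23) and the widest for Grhl3 (-0.59 to 1.15).

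The promoters of Grhl3 and Cebpa are shown because both genes were lowest on replicate 1 of each group and both promoters hold the letters of a KLF motif, a family with members in the set. Cebpb was also lowest on replicate 1 of each group, but its promoter held no KLF letters. A link between these letters and the array values was not tested. RefSeq promoters (GRCm38.p6, 250 bases before to 50 after the start) were found for 6 of the 10 genes: Klf4, Grhl1, Grhl3, Tfap2a, Cebpa and Cebpb. The Grhl3 promoter lies on the minus strand at chr4:135573583-135573882 and the Cebpa promoter on the plus strand at chr7:35119043-35119342. Capitals mark the KLF letters, GGGTGNGG on either strand, at -112 in Grhl3 and -242 in Cebpa, counted from the start.
Grhl3: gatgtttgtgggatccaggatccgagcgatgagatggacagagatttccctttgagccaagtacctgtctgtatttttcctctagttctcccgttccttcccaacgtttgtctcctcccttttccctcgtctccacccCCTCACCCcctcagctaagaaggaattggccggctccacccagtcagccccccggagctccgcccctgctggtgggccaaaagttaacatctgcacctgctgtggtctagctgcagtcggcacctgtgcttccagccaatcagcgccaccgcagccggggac
Cebpa: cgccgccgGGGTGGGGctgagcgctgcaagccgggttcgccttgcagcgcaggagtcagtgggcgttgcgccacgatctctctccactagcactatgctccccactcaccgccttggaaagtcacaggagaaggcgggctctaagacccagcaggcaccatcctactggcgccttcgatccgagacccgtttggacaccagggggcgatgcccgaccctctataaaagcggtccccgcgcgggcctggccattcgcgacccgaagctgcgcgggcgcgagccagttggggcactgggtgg

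The same KLF letters occurred in 16.6% of 32851 promoters. The AP-2 letters GCCNNNGGC were in the promoters of Klf4 and Grhl1, and in 16.6% of all promoters. No promoter of the 6 genes held the letters TTGCNNAA of C/EBP factors, AACNNGTT of Grainyhead-like factors or CCGTTA of Ovo-like factors on either strand, which were in 10.8%, 4.2% and 2.76% of all promoters. The loose p63 pattern, a pair of spaced C and G letters repeated once, was in a promoter of all 6 genes but also in 70.2% of all promoters. None of these promoters held both AP-2 and KLF letters. A match describes letters only and shows no binding.

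For every member but Tfap2a the difference between ages was smaller than the pooled spread within groups. For 6 of the 10 genes (Klf5, Grhl3, Ovol1, Tfap2c, Cebpa and Cebpb) replicate 1 was the lowest array in both groups, which was the case for 20.3% of all tested genes. The pooled spread within groups (SD) was above the median of all tested genes, 0.198, for 8 members. It reached 0.520 for Grhl3, 0.486 for Ovol1 and 0.470 for Tfap2c, higher than in 87.8%, 86.4% and 85.7% of tested genes. Between same-numbered arrays, 2 of 10 members were higher in aged replicate 1 than in young replicate 1 (Grhl3 and Tfap2a), 8 in replicate 2 and 9 in replicate 3. Over all arrays, 63.6% of all tested genes had a difference above 0, and their share at each number is not given here. Grhl3 and Tfap2a were higher in the aged array in all 3 comparisons, or 2 of 10 against 32.7% of all tested genes. Replicate 1 of both groups carried the Y-linked transcripts, and aged replicate 1 was the only array of 22 months; Langerhans cell genes were lowest and sebocyte genes highest on aged replicate 1. The part of these in the members' values was not tested.

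**Figure D3:**
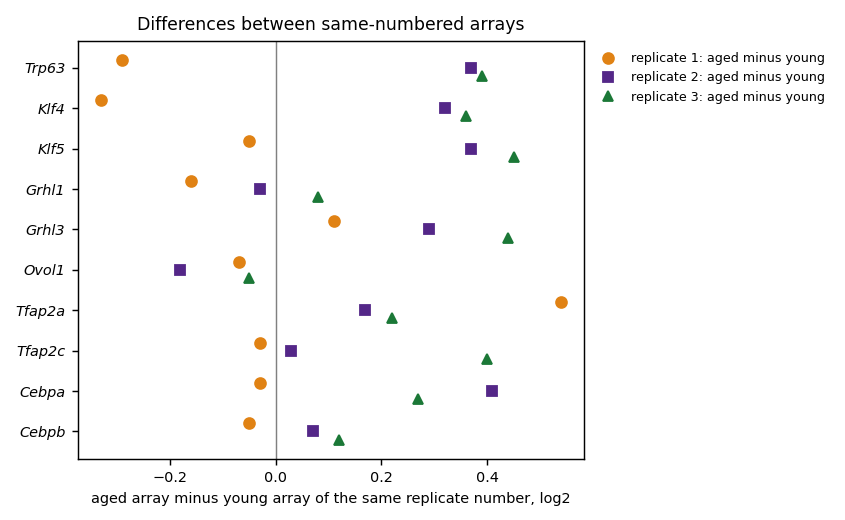
Aged array minus young array of the same replicate number for each transcription factor gene, in log2 units; each symbol is 1 pair of arrays. In replicate 1 the points of Trp63 and Klf4 lie at -0.29 and -0.33, while in replicates 2 and 3 they lie between 0.32 and 0.39.

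The 4 related pairs were also set against each other within each array, which removes the scaling of the array. With 3 arrays against 3 the exact permutation test cannot give a p below 0.1. The log2 difference Klf4 minus Klf5 was 3.06 ± 0.10 in aged and 3.19 ± 0.21 in young epidermis (SD, n = 3 arrays each, exact two-sided permutation p = 0.4). Grhl3 minus Grhl1 was -1.36 ± 0.57 in aged and -1.68 ± 0.53 in young epidermis, a change of 0.31 ± 0.45 (SE, exact p = 0.5). Tfap2c minus Tfap2a was 0.44 ± 0.81 in aged and 0.62 ± 0.46 in young epidermis, a change of -0.18 ± 0.54 (exact p = 0.8), and its direction turned without aged replicate 1 (0.285), without both arrays numbered 1 (0.021) and with the other Tfap2a probe (0.2). Cebpb minus Cebpa was 1.210, 1.104 and 1.213 on aged arrays and 1.237, 1.443 and 1.360 on young arrays. All aged values of this pair lay below all young values, a change of -0.17 ± 0.07 at the smallest p the design allows (exact p = 0.1), and adjusted over the 4 pairs it was 0.4. Taken between same-numbered arrays, an alternative added after the data were seen, Grhl3 minus Grhl1 differed by 0.266, 0.324 and 0.353, a mean of 0.31 ± 0.03 (SE, n = 3 pairs of arrays, exact sign-flip p = 0.25). Klf4 minus Klf5 (-0.271, -0.050 and -0.086) and Cebpb minus Cebpa (-0.027, -0.339 and -0.147) also had the same sign in all 3 pairs of arrays. With 3 pairs of arrays this paired exact test cannot give a p below 0.25. These differences mix the brightness of 2 probes, so only their change between ages has a meaning.

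Genes with the most similar course over the 6 arrays were sought among the 13067 genes detected on all 6 arrays. For Trp63 they were Snrpd3, a gene of the spliceosome, and Ran, a gene of nuclear transport, with Pearson's r of 0.991 and 0.988. Thbd, the gene of thrombomodulin, and Tor1aip2 were nearest to Klf4 (0.995 each), and Lynx1 and Lrrc14 to Klf5 (0.997 each). Acvr2a, an activin receptor gene, and Fgd4 were nearest to Grhl1 (0.973 and 0.970), and Tdpoz8 and Zfp791 to Grhl3 (0.995 and 0.991). Zbtb1 and Lrrc32 were nearest to Ovol1 (0.998 and 0.993), Atg7, an autophagy gene, and Gm1673 to Tfap2a (0.996 and 0.995), and Il15ra and Tbc1d25 to Tfap2c (0.997 each). Il4ra, the interleukin-4 receptor chain gene, and Dennd2c were nearest to Cebpa (0.993 and 0.991), and Rabep1 and Tec to Cebpb (0.995 and 0.989). Over only 6 arrays such values are common: between 6 genes, for Grhl1, and 250 genes, for Klf5, had an r above 0.95, so these are descriptions of shared array profiles.

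Other genes of the same families showed no member past the threshold either. Of 26 listed genes 20 were tested, 13 with a difference above 0 and 7 below, and the median was 0.06, beside 0.09 over all tested genes. Klf12 had the largest difference, with -4.11, -4.80 and -3.74 on aged and -2.71, -2.24 and -2.44 on young arrays. It was well above background on 2 of 3 aged and 3 of 3 young arrays, and differed by -1.75 ± 0.29 (adjusted p = 0.107). Klf15 differed by -0.56 ± 0.16 (adjusted p = 0.182), again with separate groups, Klf10 by 0.45 ± 0.20 (adjusted p = 0.293) and Tfap2b by -0.69 ± 0.32 (adjusted p = 0.315). Grhl2, Ovol2 and Cebpd, near relatives of the members, differed by -0.02 ± 0.12, 0.01 ± 0.11 and 0.02 ± 0.23; they are named after their values were seen. With normexp background correction Klf12 differed by -0.57 (adjusted p = 0.099) and Klf15 by -0.25, and without aged replicate 3 Tfap2b differed by -0.42. Without aged replicate 1, 4 of these genes passed, where 5.72% of all tested genes did (1.96% higher and 3.76% lower): Klf12 (-1.81, adjusted p = 0.0414) and Tfap2b (-1.04, adjusted p = 0.0299) were lower in aged epidermis, and Klf10 (0.65, adjusted p = 0.0427) and Klf6 (0.81, adjusted p = 0.0428, named after its value was seen) were higher. Klf12 also passed with array weights (-2.08, adjusted p = 0.0289), where 5.42% of all tested genes did.

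Of 26 other epidermal regulators all were tested, 0 passed and the median was 0.12. The chromatin organiser gene Satb1, a p63 target, had -4.17, -2.18 and -2.37 on aged and -1.10, -2.19 and -1.69 on young arrays, a difference of -1.25 ± 0.58 (adjusted p = 0.313). Satb1 differed by -0.62 without aged replicate 1, by -0.33 without both arrays numbered 1, by -0.55 with normexp and by -0.67 with array weights. The glucocorticoid receptor gene Nr3c1 differed by 0.26 ± 0.13 (adjusted p = 0.342) with aged values above young ones, the homeobox gene Barx2 by -0.44 ± 0.23 (adjusted p = 0.358) with aged values below young ones, and Ppard, a lipid-sensing nuclear receptor gene, by 0.19 ± 0.12 (adjusted p = 0.429). Without aged replicate 1 the inhibitor gene Id1, named after its value was seen, passed with 0.92 ± 0.14 (adjusted p = 0.0267), 1 of 26 genes beside 5.72% of all tested genes, and without aged replicate 3 Barx2 differed by -0.19.

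Downstream genes were read on both sides of the programme. Of 22 basal genes, most of them known p63 targets, 0 passed, 6 had an unadjusted p under 0.05, all higher in aged epidermis, where 11.4% of tested genes lay, and 16 had a difference above 0. Their median was 0.26, beside 0.09 over all tested genes. Jag2, a Notch ligand gene, had 2.03, 2.18 and 2.29 on aged and 1.81, 1.61 and 1.72 on young arrays, a difference of 0.45 ± 0.12 (adjusted p = 0.18). The hemidesmosome integrin gene Itgb4 differed by 0.59 ± 0.20 (adjusted p = 0.218), the laminin chain gene Lama3 by 0.59 ± 0.20 (adjusted p = 0.225) and the receptor gene Fgfr2 by 0.37 ± 0.14 (adjusted p = 0.254). For Krt5 and Krt14, the keratin pair of the basal layer, the differences were 0.12 ± 0.11 and 0.26 ± 0.13 (adjusted p = 0.557 and 0.336). Jag2 and Itgb4 passed with array weights (adjusted p = 0.0489 and 0.0401), and Itgb4 without aged replicate 1 (0.79, adjusted p = 0.0316), where 5.42% and 5.72% of all tested genes passed.

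Of 34 differentiation genes 33 were tested, 0 passed, 14 had a difference above 0 and 19 below, and the median was -0.03. Krt10, a suprabasal keratin gene, had 9.41, 9.47 and 9.55 on aged and 9.41, 9.44 and 9.54 on young arrays, a difference of 0.02 ± 0.11 (adjusted p = 0.95). The cornified envelope genes Lor, Ivl and Tgm1 differed by -0.03 ± 0.12, 0.05 ± 0.10 and -0.08 ± 0.24 (adjusted p = 0.925, 0.806 and 0.876), and Flg was not analysed here. Krt1, the partner keratin gene of Krt10, differed by -0.43 ± 0.31 (adjusted p = 0.486). With the replicate block the SE of this difference was 0.11 (limma adjusted p = 0.18). Krt1 differed by -0.19 without young replicate 1, by -0.68 without aged replicate 1 and by -0.03 with the slide row as a block. With all arrays the largest difference was that of Rptn, an envelope protein gene, at -1.17 ± 0.43 (adjusted p = 0.239), followed by p by Sprr1a (-0.30 ± 0.16, adjusted p = 0.374), Dsg1a (0.28 ± 0.16, adjusted p = 0.377) and Calml3 (0.26 ± 0.17, adjusted p = 0.445). Rptn differed by -0.71 without aged replicate 1 and by -0.59 without both arrays numbered 1. Without aged replicate 1, 3 of 33 genes, all of the envelope and named after their values were seen, were higher in aged epidermis past the threshold, where 1.96% of all tested genes were: Sprr2d (1.31, adjusted p = 0.0204), Sprr2h (0.76, adjusted p = 0.0324) and Lce3c (0.98, adjusted p = 0.0348). The Sprr2 genes are close copies of each other, so their probes may share signal. Sprr2d also passed without both arrays numbered 1 (1.42, adjusted p = 0.0473), where 1.52% of all tested genes did.

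**Figure D4:**
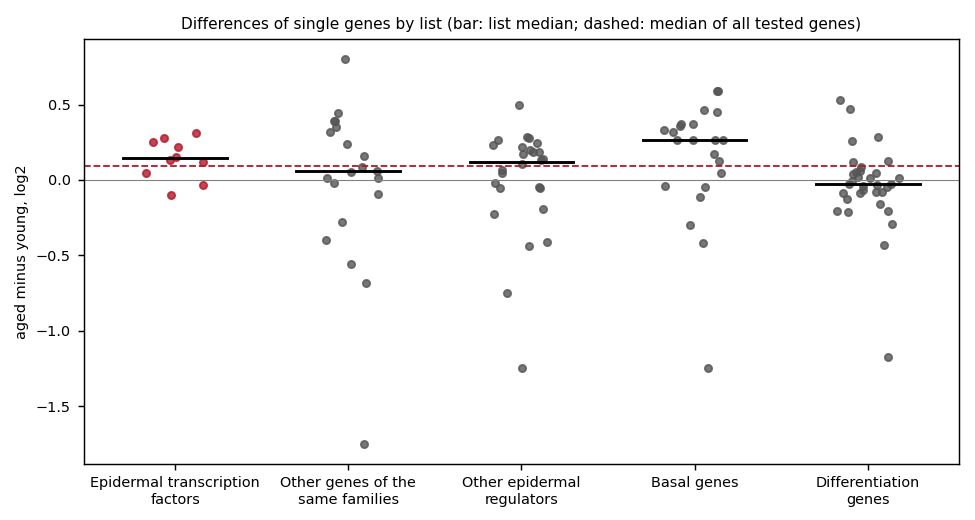
Difference of each tested gene between aged and young epidermis on the log2 scale, by list; points are genes (10, 20, 26, 22 and 33 from left to right), bars the list medians (0.14, 0.06, 0.12, 0.26 and -0.03) and the dashed line the median of all 14136 tested genes. The transcription factors lie between -0.10 and 0.31, and no gene shown passed the threshold.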

How the data were processed

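Per the labels' protocols, total RNA was converted to amplified, Cy3-labelled cDNA and put on single-dye Agilent arrays. Per the file headers, images were read with Feature Extraction 11.5.1.1, and the deposited processed signal is a linear intensity, background-subtracted and detrended within each array. The authors' deposited table of log2 values (33870 probes) matched the scanner values scaled to the 75th percentile and centred on each probe's median (r of at least 0.9999 per array). Flags for detection, outliers and saturation are the scanner software's, per the file headers.

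Values are log2 of that signal, less the 75th percentile of each array. Control spots were removed, as were outlier spots (116 to 170 per array; none of a member), and repeated spots were averaged. Probes were named by RefSeq accession (GRCm38.p6 table; 28331 of 55681 matched). Probes well above background on at least 3 of 6 arrays were kept, the brightest per gene, giving 25068 features, 14136 of them genes. Aged and young arrays were compared with limma 3.58.1 in R 4.3.3 (two-sided, no covariate, Benjamini-Hochberg over all features). The script was tested on simulated data. Alternatives were other normalizations, background correction, filters, probe choice, the authors' table, array weights, slide row, a replicate block and arrays left out.

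Same-numbered samples deviated together from their group means (r = 0.414, 0.259 and 0.102 across features, each over 0.1), so the numbers were taken to pair the samples; the labels name nothing that they share, and aged replicate 3 correlated more with another number (0.286). Members, lists and the rule for named genes were chosen with earlier results of these data known. The rule named all members, 8 keratinocyte genes, up to 4 genes per list by unadjusted p, and the 2 genes most alike each member. Precision is limited by having 3 arrays per group. Normexp (offset 50) used median spot signals.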

Additional observations from a re-analysis of the deposited data

How the results depend on the processing

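The count of 0 transcription factors past the threshold held under all 17 alternatives, and the lowest adjusted p of any member was 0.132, for Klf5 without aged replicate 1. At an unadjusted p under 0.05, array weights gave 1 member of 10 (Cebpa) beside 28.3% of all tested genes, leaving out aged replicate 1 gave 3 (Klf4, Klf5 and Cebpa) beside 23.5%, leaving out both arrays numbered 1 gave 3 (Trp63, Klf4 and Klf5) beside 26.1%, and the other alternatives gave 0. The replicate block changed no call of a member or a related list. The sign of small differences changed in some settings: Cebpb was -0.059 under quantile normalization, Grhl1 0.042 and Lor 0.049 with scaling to the median, Lor 0.020 with normexp, Tgm1 0.064 with array weights, and Grhl1 0.027 and Tgm1 0.121 without both arrays numbered 1. With the slide row as a block, which rests on 1 young array, Grhl1 was 0.066, Grhl3 -0.070, Tfap2c -0.068, Cebpb -0.005 and Krt10 -0.065. With single arrays left out, Ovol1 ranged from -0.383 to 0.172, Tfap2c from -0.100 to 0.434, Cebpb from -0.070 to 0.215, Grhl1 from -0.084 to 0.015, Krt10 from -0.022 to 0.057, Tgm1 from -0.214 to 0.175 and Lor from -0.106 to 0.034. The cause was not tested. The count of all changed genes was 7 under quantile normalization, 21 with scaling to the median, 3 with the filter for all 6 arrays, 1 without a filter, 766 with array weights, 0 with the slide row or the replicate block, and 215 without both arrays numbered 1. With single arrays left out it was 0 to 809, 809 without aged replicate 1 and 0 without any other array, where 1321 to 2411 genes had an unadjusted p below 0.05. Related family genes numbered 1 with array weights and 0 to 4 with single arrays left out, other regulators 0 to 1, basal genes 2 and 0 to 1, and differentiation genes 0 to 3, with 1 without both arrays numbered 1. The changes of the 4 pairs moved by less than the SD within groups, but Tfap2c minus Tfap2a was -0.176 with all arrays and turned to 0.285 without aged replicate 1, 0.2 with the other Tfap2a probe and 0.021 without both arrays numbered 1, and Cebpb minus Cebpa was -0.243 without both arrays numbered 1. With the replicate block the exact p of the pairs was 0.25 to 0.75.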
